A study of Mus musculus with 7 samples.

Results

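The claudins are the membrane proteins that set what passes between neighbouring epithelial cells, and 8 of them, Cldn1, Cldn2, Cldn3, Cldn4, Cldn7, Cldn8, Cldn15 and Cldn23, were followed here together with occludin (Ocln) and ZO-1 (Tjp1). These 10 genes were taken by name from the gene probes of the array files, where 13 of 41174 different probes carried one of their symbols. Of the 10 genes, 8 had a probe that stood well above background in the sorted cells on at least 2 of 7 arrays, and they were tested among 17537 genes. Cldn1 and Cldn8 did not reach that level and are described without a test.

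The sorted cells came from the mouse intestine. In Dll1-EGFP-ires-CreERT2 mice the Dll1 promoter, active in cells that start the secretory programme, drives green fluorescent protein (GFP). Their GFP-high cells were split by the surface protein CD24 into 3 levels, here called CD24 low, CD24 medium and CD24 high, with 2 arrays each. Lgr5-EGFP-ires-CreERT2 mice, in which the promoter of the R-spondin receptor Lgr5 drives GFP in stem cells at the crypt base, gave 1 array of GFP-high cells. Both alleles also encode a tamoxifen-inducible Cre, and no treatment or age is given in the labels. On every array the sorted cells carried Cy3 and RNA of the whole small intestine carried Cy5, so a level below is the log2 ratio of sorted cells over whole intestine. The series calls the replicates biological but names no animals, so the p-values measure the spread between these samples. Since Lgr5 cells had 1 array, tests against them assume that they vary as the Dll1 groups do.

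Claudins span the membrane and bind each other across the cleft between cells. Some, such as Cldn2 and Cldn15, form pores for cations and water, and others, such as Cldn4, tighten the barrier. Occludin sits in the same strands, and ZO-1 ties the strands to the actin cytoskeleton from inside the cell. In the intestine Cldn2 is known from crypts, whereas Cldn3, Cldn4, Cldn7, Cldn8 and Cldn23 are described mostly from the more differentiated epithelium of villus or surface. Cldn15 and, at low levels, Cldn1 are placed with the crypt type here, although Cldn15 is known along the whole crypt and villus. This division comes from general knowledge and not from these arrays.

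Cldn2 and Cldn4 differed most between the sorted groups, and Cldn3 is the chromosomal neighbour of Cldn4, so the 250 bases before the RefSeq start of these 3 genes are shown (build GRCm38.p6, 5′ to 3′ on the gene's strand). Capitals mark matches on either strand to an E-box (CANNTG), a CDX motif (TTTATG), a GC box (GGGCGG) or a TATA box (TATAAA). No matches overlapped.
Cldn2, chrX:139800558-139800807, plus strand: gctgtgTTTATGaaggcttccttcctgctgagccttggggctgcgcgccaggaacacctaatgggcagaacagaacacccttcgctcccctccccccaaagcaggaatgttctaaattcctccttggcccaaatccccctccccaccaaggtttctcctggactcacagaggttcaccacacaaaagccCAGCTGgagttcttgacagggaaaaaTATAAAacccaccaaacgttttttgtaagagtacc
Cldn4, chr5:134946935-134947184, minus strand: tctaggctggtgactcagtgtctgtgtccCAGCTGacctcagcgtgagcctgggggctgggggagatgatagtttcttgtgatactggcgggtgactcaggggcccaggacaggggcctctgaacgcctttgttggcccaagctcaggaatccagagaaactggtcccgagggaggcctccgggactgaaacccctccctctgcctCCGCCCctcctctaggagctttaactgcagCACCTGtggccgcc
Cldn3, chr5:134985964-134986213, plus strand: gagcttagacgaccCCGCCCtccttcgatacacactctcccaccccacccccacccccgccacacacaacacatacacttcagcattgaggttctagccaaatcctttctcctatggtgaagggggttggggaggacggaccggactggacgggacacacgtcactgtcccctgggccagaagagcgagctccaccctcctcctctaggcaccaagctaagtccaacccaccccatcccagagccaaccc
The Cldn2 window held a TATA box that began 35 bases before the start, an E-box 61 bases and a CDX motif 244 bases before it, with a GC content of 52.0%. Among all 32851 promoter windows of that length, 12.4% held TATAAA, 10.8% held TTTATG and 66.2% held CANNTG. The Cldn4 window, with a GC content of 62.0%, held E-boxes 14 and 221 bases and a GC box 44 bases before the start. In the Cldn3 window, at 60.8% GC, a GC box lay 236 bases before the start and no E-box was found. GC boxes occurred in 32.7% of all windows, and the median GC content over windows was 52.4%. The letters CTTTGA of a TCF/LEF motif, present in 13.8% of all windows, were not found in any window of the 8 genes that had one. An HNF1 motif (GTTAAT), in 6.43% of all windows, was searched too and matched in the Cldn1 window alone. The array probes of Cldn4 and Cldn3 lie 41.8 kb apart on chromosome 5 of build mm9, on opposite strands.

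Across the 7 arrays 42.5 to 60.5% of 43379 gene spots were well above background in the sorted cells, lowest on the CD24 high arrays (42.5 and 44.4%), and 73.9 to 78.6% in whole intestine. Paneth cell markers had a median level of 4.69 and 4.73 on the CD24 high arrays, enteroendocrine markers were highest in CD24 medium (2.80 and 4.15) and goblet markers in CD24 low (3.73 and 2.84), while stem cell markers reached 2.13 in Lgr5 cells. The arrays lay on 2 slides. The first held CD24 medium 1, CD24 high 1 and Lgr5, and the second held both CD24 low arrays, CD24 medium 2 and CD24 high 2, so CD24 low and Lgr5 cells were never on 1 slide. In bulk RNA, fewer cells of a type and less RNA per cell cannot be told apart. Between groups, all genes had a median difference of 0.01 to 0.10 on the log2 scale.

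**Figure D1:**
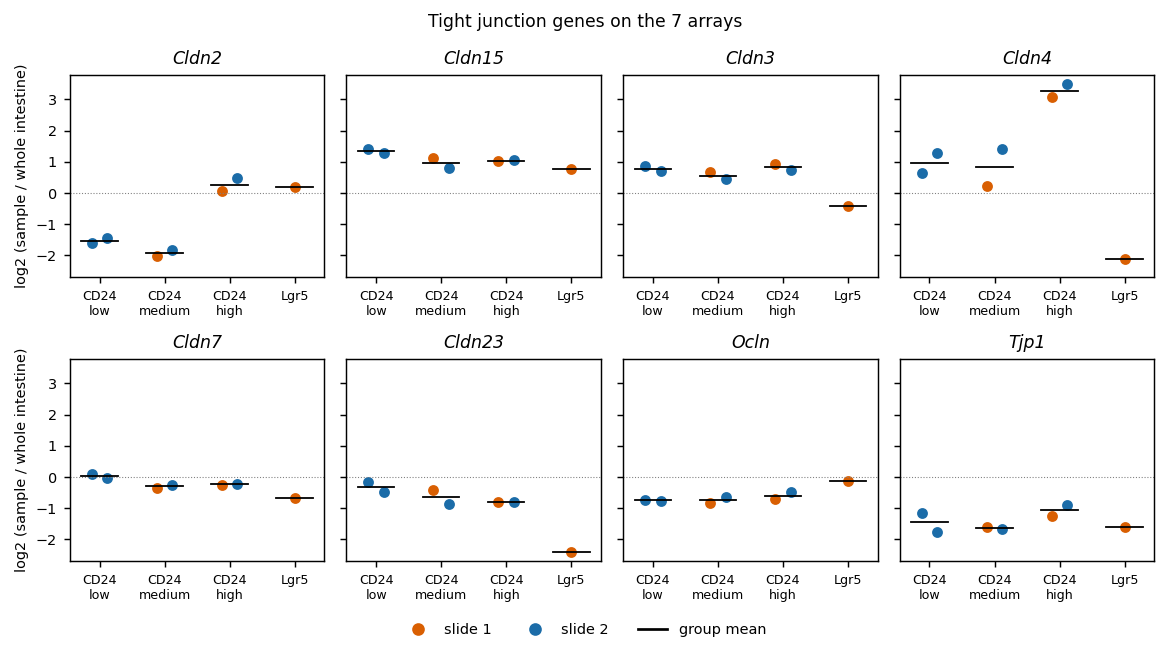
Log2 ratio of sorted cells over whole small intestine for the 8 tight junction genes measured, with 1 point per array, colour for the slide and a black line for the group mean. Cldn2 lies near 0 in CD24 high and Lgr5 cells and below -1.4 in the other groups, and Cldn4 spans from -2.11 in Lgr5 cells to 3.50 in CD24 high.

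Cldn2, the pore-forming claudin of crypts, separated the 4 groups into a lower and a higher pair. Its level was -1.61 and -1.44 in CD24 low, -2.02 and -1.83 in CD24 medium, 0.06 and 0.47 in CD24 high, and 0.19 in Lgr5 cells (probe on chromosome X, 136345244 to 136345303, plus strand, mm9). All 4 CD24 low and medium arrays lay below every CD24 high and Lgr5 array, and the Lgr5 value lay between both CD24 high values. In CD24 low cells Cldn2 was 3.46-fold lower than in CD24 high (log2 difference -1.79, SE 0.20, limma adjusted p = 0.0019). CD24 medium cells had 4.57-fold less than CD24 high (-2.19, SE 0.20, limma adjusted p = 0.0011). Against Lgr5 cells Cldn2 was 3.29-fold lower in CD24 low (-1.72, SE 0.24, limma adjusted p = 0.0061) and 4.35-fold lower in CD24 medium (-2.12, SE 0.24, limma adjusted p = 0.0035).

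Within each pair the groups did not differ past the threshold in Cldn2, although both CD24 low arrays lay above both CD24 medium arrays. CD24 high and Lgr5 cells differed by 0.07, with a 95% interval of -0.50 to 0.65 (limma adjusted p = 0.85), and CD24 low and CD24 medium by 0.40, with an interval of -0.07 to 0.87 (limma adjusted p = 0.54). Before scaling, the background-subtracted Cldn2 signal of the sorted cells was 440 to 529 on the CD24 low and medium arrays, 591 and 860 on the CD24 high arrays and 2270 on the Lgr5 array. The placing of CD24 high beside Lgr5 therefore rests on the scaling within arrays, but quantile scaling of the sample channel alone left their difference at -0.06 (limma adjusted p = 0.89). On the first slide, the single CD24 high and Lgr5 arrays differed by -0.13.

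Paneth cell markers moved with the CD24 level. Of 7 listed, 6 were on the array, with summed sample signals of 15600 to 20900 in CD24 low, 93000 to 94300 in CD24 medium, 610000 to 616000 in CD24 high and 15800 in Lgr5 cells. All 6 exceeded background clearly on the CD24 medium and high arrays, and 5 did on the CD24 low and Lgr5 arrays. The sums, here and for the other markers below, are background-subtracted signals without scaling between arrays. Cldn2 in Lgr5 cells lay within the range of CD24 high while the Paneth sum there was close to that of CD24 low. Stem cell markers, 6 of 6 well above background on every array, had median levels of -0.64 to -0.42 in CD24 low, -0.22 to -0.19 in CD24 medium, 0.73 to 1.00 in CD24 high and 2.13 in Lgr5 cells. Of the 6, 4 were lower in CD24 low and in CD24 medium than in CD24 high, as Cldn2 was, beside 11.2% and 13.3% of all genes. The summed signals of the 6 stem cell markers were 1750 to 2220 in CD24 low, 2450 to 2510 in CD24 medium, 2510 to 2850 in CD24 high and 22100 in Lgr5 cells. The part of Paneth and stem cells in the Cldn2 levels was not tested.

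The other measured claudin of the crypt type, Cldn15, was above the whole-intestine level in every group. Its level was 1.41 and 1.28 in CD24 low, 1.12 and 0.80 in CD24 medium, 1.01 and 1.07 in CD24 high, and 0.77 in Lgr5 cells (chromosome 5, 137451465 to 137451524, plus strand, mm9). Both CD24 low arrays were above all others, and the remaining groups followed closely. No comparison passed the test for Cldn15. The largest difference was 0.57 between CD24 low and Lgr5 cells, with a 95% interval of 0.07 to 1.08 and a limma adjusted p of 0.10. With the sample channel alone, that value was 0.05, and those of CD24 medium and CD24 high against Lgr5 turned from 0.19 and 0.27 to -0.24 and -0.32.

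Cldn4, a barrier-tightening claudin, had the widest range of the 8 measured genes. It stood at 0.63 and 1.29 in CD24 low, 0.24 and 1.41 in CD24 medium, 3.06 and 3.50 in CD24 high, and -2.11 in Lgr5 cells (chromosome 5, 135421347 to 135421406, minus strand, mm9). Both CD24 high arrays were above all others, the Lgr5 array was below all others, and CD24 low and medium overlapped. In CD24 high cells Cldn4 was 41.8-fold higher than in Lgr5 cells (log2 difference 5.39, SE 0.51, limma adjusted p = 7e-04). It was also higher than in Lgr5 cells by 8.39-fold in CD24 low (3.07, SE 0.51, limma adjusted p = 0.010) and by 7.63-fold in CD24 medium (2.93, SE 0.51, limma adjusted p = 0.012). Over the alternatives the CD24 high against Lgr5 difference ranged from 4.55 to 6.60. The Cldn4 signal was 57.9 on the Lgr5 array, against 411 to 1740 on the Dll1 arrays. All folds against Lgr5 cells, and the width of the range, thus rest on 1 dim value.

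Between CD24 levels, Cldn4 was 4.99-fold lower in CD24 low than in CD24 high (-2.32, SE 0.42, limma adjusted p = 0.013) and 5.48-fold lower in CD24 medium than in CD24 high (-2.45, SE 0.42, limma adjusted p = 0.011). Without CD24 high 2 these differences were -2.10 (limma adjusted p = 0.072) and -2.23 (limma adjusted p = 0.062). CD24 low and CD24 medium differed by 0.14, with a 95% interval of -0.86 to 1.14 (limma adjusted p = 0.96), and the sign turned to -0.45 on the second slide alone. In both of these groups the second replicate was the higher one.

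Markers of other secretory cells differed between the groups too. The Paneth sums given above were highest in CD24 high, as Cldn4 was. Goblet markers, all 7 of 7 well above background on every array, had summed signals of 671000 to 1150000 in CD24 low, 592000 to 843000 in CD24 medium, 161000 to 190000 in CD24 high and 29200 in Lgr5 cells. Among the Dll1 groups these sums were lowest in CD24 high, where Cldn4 was highest. Of the 7, 5 were higher in CD24 low than in CD24 high, where 6.84% of all genes passed as higher. Spink4 ran the other way, 7.7-fold lower in CD24 low, and Muc2 differed by 0.16. Enteroendocrine markers, of which 8 to 10 of 10 were well above background, had higher medians in the second replicate of CD24 low and medium, as Cldn4 had. The medians were 1.42 and 2.73 in CD24 low and 2.80 and 4.15 in CD24 medium. In CD24 high, where Cldn4 had 3.06 and 3.50, the medians of these markers were -0.04 and -0.12. Their sums were 80900 to 133000 in CD24 low, 192000 to 428000 in CD24 medium, 11600 to 12900 in CD24 high and 7590 in Lgr5 cells, again lowest among the Dll1 groups in CD24 high. Of the 10, beside the same share of all genes, 4 were higher in CD24 low than in CD24 high, while Gip was 16.6-fold lower. The part of these cell types in the Cldn4 values was not tested.

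Cldn23, a claudin described from surface epithelium, was lowest in Lgr5 cells. Its level was -0.17 and -0.47 in CD24 low, -0.40 and -0.85 in CD24 medium, -0.81 and -0.81 in CD24 high, and -2.40 in Lgr5 cells (chromosome 8, 36888151 to 36888210, minus strand, mm9). All 6 Dll1 arrays were above the Lgr5 array, and the Dll1 groups lay close together. Against Lgr5 cells Cldn23 was 4.24-fold higher in CD24 low (2.09, SE 0.25, limma adjusted p = 0.0040), 3.43-fold higher in CD24 medium (1.78, SE 0.25, limma adjusted p = 0.0066) and 3.01-fold higher in CD24 high (1.59, SE 0.25, limma adjusted p = 0.0043). With the sample channel alone the last 2 values were 1.15 (limma adjusted p = 0.061) and 0.36 (limma adjusted p = 0.43). Cldn23 signals were low on the CD24 high arrays (81.3 and 130) and the Lgr5 array (122), against 340 to 539 on the others, and the whole-intestine signal on CD24 high 1 was 2250, against 4190 to 4460 on the other 6 arrays.

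Among the CD24 levels, Cldn23 differed by 0.49 between CD24 low and CD24 high (95% interval 0.00 to 0.99, limma adjusted p = 0.15), a value that was 1.02 with the sample channel alone (limma adjusted p = 0.038). The neighbours in its order, CD24 low and medium (limma adjusted p = 0.70) and CD24 medium and high (limma adjusted p = 0.56), did not pass the test.

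Cldn3, an abundant claudin of intestinal epithelium, was above the whole-intestine level in all Dll1 groups and below it in Lgr5 cells. The values were 0.85 and 0.71 in CD24 low, 0.66 and 0.44 in CD24 medium, 0.92 and 0.75 in CD24 high, and -0.43 in Lgr5 cells (chromosome 5, 135463179 to 135463238, plus strand, mm9). CD24 low and CD24 high overlapped, and both CD24 medium arrays were below them by little. Against Lgr5 cells Cldn3 was 2.31-fold higher in CD24 low (1.21, SE 0.20, limma adjusted p = 0.011), 1.97-fold higher in CD24 medium (0.98, SE 0.20, limma adjusted p = 0.022) and 2.40-fold higher in CD24 high (1.26, SE 0.20, limma adjusted p = 0.0047). The CD24 medium call was lost with Agilent's processed signals (0.91, limma adjusted p = 0.053) and without CD24 medium 1 (0.87, limma adjusted p = 0.096) or CD24 medium 2 (1.08, limma adjusted p = 0.065). Between CD24 levels Cldn3 did not pass, with differences of -0.05 in CD24 low against high (95% interval -0.45 to 0.35) and -0.28 in CD24 medium against high (-0.68 to 0.12). Whether Cldn3 and its neighbour Cldn4 differ in how they change with the CD24 level was not tested.

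Cldn7, a claudin found along the lateral membrane as well as in tight junctions, varied little. It measured 0.11 and -0.03 in CD24 low, -0.34 and -0.25 in CD24 medium, -0.25 and -0.22 in CD24 high, and -0.68 in Lgr5 cells, from a probe whose mm9 positions on chromosome 11 run from 69780780 to 69781089. Both CD24 low arrays were above the other groups and the Lgr5 array was below them. CD24 low exceeded Lgr5 cells by 1.65-fold (0.72, SE 0.18, limma adjusted p = 0.037). Leaving out any 1 of the Dll1 arrays moved that adjusted p to between 0.054 and 0.082, and with the sample channel alone the difference was 0.17 (limma adjusted p = 0.44). CD24 medium and CD24 high differed from Lgr5 cells by 0.39 (limma adjusted p = 0.19) and 0.45 (limma adjusted p = 0.11), and both turned negative with the sample channel alone, at -0.16 and -0.37.

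Cldn8, a barrier claudin known from distal tubule and colon, and Cldn1 were dim in the sorted cells. For Cldn8 the sample signal was 48.6 and 47.5 in CD24 low, 51.0 and 40.7 in CD24 medium, 31.4 and 30.9 in CD24 high, and 93.6 in Lgr5 cells. It was well above background only on the Lgr5 array. Whole intestine gave 2370 to 2970 for the same probe on all 7 arrays. Cldn1 had 2 probes, well above background in the sample on none of the 7 arrays for 1 probe and on CD24 medium 1 alone for the other, where its level was 0.71. The whole-intestine channel was well above background for these probes on 3 arrays and 1 array, so Cldn1 was near the limit of the array in both.

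**Figure D2:**
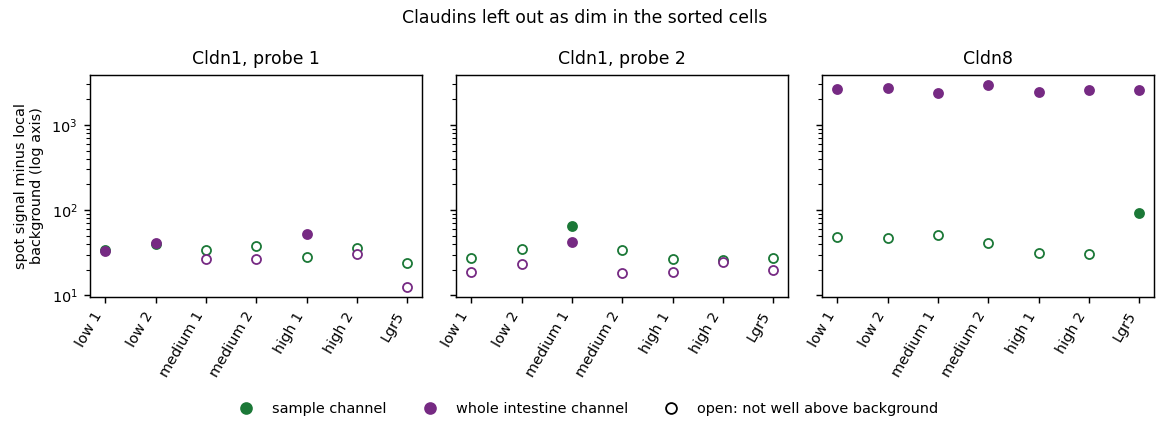
Spot signal minus local background, on a log axis, for the 2 Cldn1 probes and the Cldn8 probe on each array, with the sample channel in green and whole intestine in purple. Open circles were not well above background. Cldn8 was bright in whole intestine on all arrays (2370 to 2970) and at 30.9 to 93.6 in sorted cells.

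Occludin was the measured member with its highest value in Lgr5 cells. The level of Ocln was -0.72 and -0.76 in CD24 low, -0.83 and -0.65 in CD24 medium, -0.70 and -0.49 in CD24 high, and -0.13 in Lgr5 cells (chromosome 13, 101268114 to 101268173, minus strand, mm9). CD24 medium overlapped with CD24 low and with CD24 high, CD24 low lay below CD24 high by little, and all 6 Dll1 arrays lay below the Lgr5 array. Ocln differed from Lgr5 cells by -0.61 in CD24 low (95% interval -1.09 to -0.14, limma adjusted p = 0.072), -0.61 in CD24 medium (-1.09 to -0.13, limma adjusted p = 0.080) and -0.47 in CD24 high (-0.94 to 0.01, limma adjusted p = 0.12), none past the threshold. With the sample channel alone these were -0.80, -0.79 and -0.72, with limma adjusted p of 0.020, 0.024 and 0.015. The second Ocln probe was not well above background in the sample on any array.

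By its brighter probe, ZO-1 was below the whole-intestine level in every group, while its second, dimmer probe lay at -0.23 to 0.07 over the arrays. Tjp1 stood at -1.16 and -1.75 in CD24 low, -1.60 and -1.66 in CD24 medium, -1.25 and -0.88 in CD24 high, and -1.61 in Lgr5 cells (chromosome 7, 72441703 to 72441762, minus strand, mm9). CD24 low overlapped with CD24 medium, CD24 high and Lgr5, while CD24 high was above CD24 medium and Lgr5. No Tjp1 comparison passed the test. Its largest difference, -0.56 between CD24 medium and CD24 high (95% interval -1.14 to 0.02, limma adjusted p = 0.15), was 0.12 with the sample channel alone and -0.19 on the second Tjp1 probe, which was well above background on 2 arrays.

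**Figure D3:**
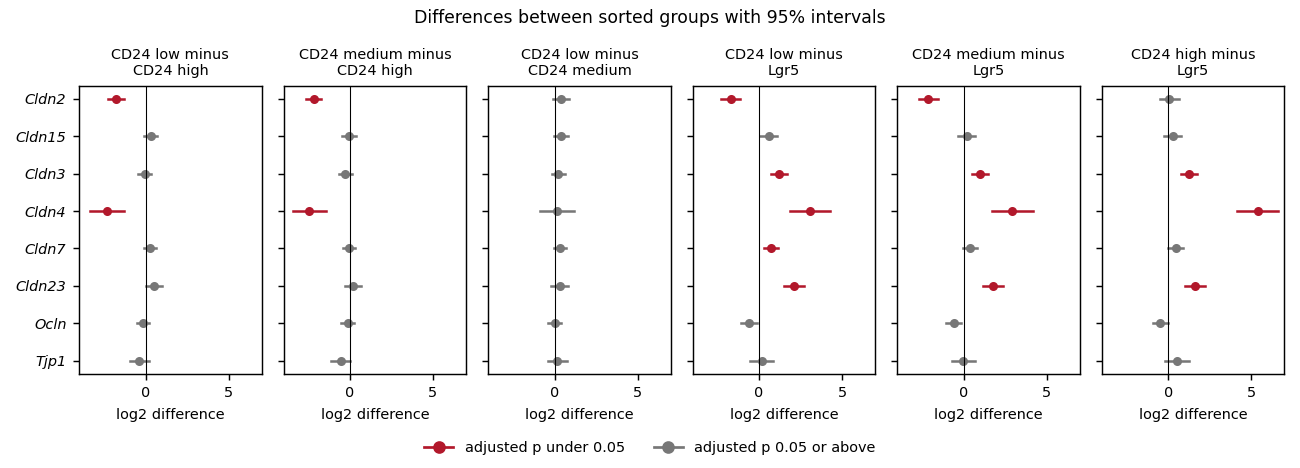
Log2 difference of the first-named minus the second-named group, with 95% limma intervals, for the 8 measured genes in all 6 comparisons. Red marks a limma adjusted p under 0.05 over all genes. Cldn2 and Cldn4 passed in CD24 low and medium against CD24 high, no gene passed between CD24 low and medium, and Cldn23, Cldn3 and Cldn4 were above Lgr5 cells in each Dll1 group.

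Counted together, 2 of 8 measured genes, Cldn2 and Cldn4, were lower in CD24 low than in CD24 high and none was higher, where 11.2% of all 17537 genes passed as lower, 6.84% as higher and 18% in either direction. The same genes were lower in CD24 medium than in CD24 high, where 13.3% of all genes passed as lower, 7.52% as higher and 20.8% in either direction. Between CD24 low and CD24 medium 0 of 8 passed, as did 0.114% of all genes by limma, and 1866 genes had an unadjusted p under 0.05. None of the 8 was among these 1866. Against Lgr5 cells, CD24 low was higher for 4 genes and lower for 1, where 11.9% of all genes passed as higher, 9.78% as lower and 21.7% in all. CD24 medium was higher for 3 and lower for 1, with 10.3%, 8.5% and 18.8% of all genes. CD24 high was higher for 3 and lower for 0, against 21.2%, 14.6% and 35.8% of all genes. These 3 comparisons share the Lgr5 array. The balance of all genes moved with the scaling. With Agilent's processed signals 3317 genes were higher and 2362 lower in CD24 low than in CD24 high, where the loess ratios gave 1200 and 1964. The same change gave 3002 higher and 2205 lower in CD24 medium against CD24 high, where loess gave 1319 and 2335, and 3212 higher and 4027 lower in CD24 high against Lgr5, where loess gave 3707 and 2559. With the sample channel alone 1408 genes were higher and 2188 lower in CD24 low against Lgr5, where loess gave 2088 and 1710, and 1252 were higher and 1667 lower in CD24 medium against Lgr5, where loess gave 1797 and 1486. That setting also gave 2329 higher and 2115 lower in CD24 low against CD24 high, 2234 and 1886 in CD24 medium against CD24 high, and 2589 and 3670 in CD24 high against Lgr5.

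By type, the 4 measured villus-type claudins had a median difference from Lgr5 cells of 1.65 in CD24 low, 1.38 in CD24 medium and 1.43 in CD24 high, against 0.10, 0.09 and 0.10 over all genes. These medians were 1.25, 1.01 and 0.57 with the sample channel alone. There 3, 2 and 2 of the 4 passed as higher, beside 1408, 1252 and 2589 of all 17481 genes. By loess ratios all 4 rose in CD24 low, and 3 of 4, Cldn3, Cldn4 and Cldn23, in the other groups. Of all genes, 11.9%, 10.3% and 21.2% passed as higher by loess ratios. Beside these shares, 7 of 10 enterocyte markers were higher than in Lgr5 cells in CD24 low, 2 of 10 in CD24 medium and 5 of 10 in CD24 high. None was lower, and the median differences were 1.39, 0.66 and 1.22. All 10 enterocyte markers were well above background on every array. Their summed signals, unscaled between arrays, were 30300 to 38700 in CD24 low, 27300 to 30400 in CD24 medium, 10700 to 11200 in CD24 high and 23300 in Lgr5 cells. CD24 high thus lay below Lgr5 cells in the sums, but above them in the median of scaled levels. The part of enterocytes in the villus-type values was not tested. Of the 2 measured crypt-type claudins, Cldn2 fell in CD24 low and CD24 medium and Cldn15 did not pass in any group. Between CD24 levels, 1 claudin of each type, Cldn2 and Cldn4, was lower in CD24 low and CD24 medium than in CD24 high. With Agilent's processed signals the median of all genes moved to 0.24 in CD24 low against high, 0.21 in CD24 medium against high and -0.15 in CD24 high against Lgr5, and Cldn2 and Cldn4 kept their directions in the first 2 comparisons under each scaling.

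Across the 7 arrays, the levels of Cldn3 and Cldn23 correlated at r = 0.92, Cldn7 and Cldn23 at 0.88, and Cldn23 and Ocln at -0.94, while Cldn2 and Cldn4 correlated at 0.21. These are descriptions over 7 arrays that share the reference RNA. The Lgr5 value lay outside the range of the Dll1 arrays for each of these genes except Cldn2, where it lay within the range of CD24 high. Among 4214 genes with an SD over arrays of at least 0.5, the profiles most like Cldn2 were Mtarc2 (r = 0.984), Tifa (0.978) and Adk (0.976). Mtarc2 measured -1.04 and -0.92 in CD24 low, -1.26 and -1.11 in CD24 medium, 0.33 and 0.38 in CD24 high and -0.01 in Lgr5 cells. The most like Cldn4 were Irak1 (0.997), Lars2 (0.994) and Ly6e (0.993), and Ly6e measured 0.20 and 0.89, 0.26 and 0.78, 1.62 and 1.95, and -0.95 in the same order, with the second replicate above the first in every Dll1 group, as for Cldn4. Gpx7, Mgat3 and Osbpl7 were nearest to Cldn23, and Mia3, Kdelr2 and Pllp to Cldn3.

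Of the claudins outside the 8, 21 were listed and 8 were measured. None passed in CD24 low or medium against CD24 high, where 18% and 20.8% of all genes did, or between CD24 low and medium (0.114%). None passed in CD24 low or medium against Lgr5 (21.7% and 18.8%), and 2 passed in CD24 high against Lgr5, where 35.8% of all genes did. With Agilent's processed signals 1 was higher in CD24 low and 1 in CD24 medium than in CD24 high, beside 3317 and 3002 of all genes. Cldn12, a claudin without the usual anchor for ZO proteins, had 0.22 and 0.01 in CD24 low, 0.48 and 0.45 in CD24 medium, 0.02 and -0.11 in CD24 high, and 0.78 in Lgr5 cells. It was 1.77-fold lower in CD24 high than in Lgr5 cells (-0.83, SE 0.19, limma adjusted p = 0.018). Cldn5, best known from endothelium, had -0.91 and 0.26 in CD24 high and was not well above background in Lgr5 cells. Set against the floor of the Lgr5 array in single channels, its CD24 high mean was 2.26-fold higher. The sample channel alone with quantile scaling gave a log2 difference of 0.71. By loess ratios the difference was 1.43 (limma adjusted p = 0.045), a call kept in 4 of 15 alternatives. Leaving out single arrays and other settings moved that p from 0.0041 to 0.35. Of 7 endothelial markers, Cdh5, Kdr and Tie1 were not well above background on any array, and 1 of the 7 was on each CD24 high array, with summed signals of 340 to 486 in CD24 low, 424 to 506 in CD24 medium, 333 to 352 in CD24 high and 477 in Lgr5 cells.

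Of 14 further membrane proteins of the junction, 10 were measured. Against Lgr5 cells 6 were higher and 1 lower in CD24 low, 2 higher in CD24 medium and 6 higher in CD24 high, beside 11.9%, 10.3% and 21.2% of all genes as higher. Of the last 6, 2 (Clmp and Ildr1) were not well above background in CD24 high. Over the alternatives the numbers higher were 1 to 6 in CD24 low (1 with the slide as a term), 0 to 5 in CD24 medium and 1 to 6 in CD24 high (1 with the sample channel alone). F11r, which encodes the adhesion molecule JAM-A, had -0.56 and -0.70 in CD24 low, -1.10 and -0.91 in CD24 medium, -0.36 and -0.05 in CD24 high, and -2.22 in Lgr5 cells. All Dll1 arrays were above the Lgr5 array, and F11r was 3.01-fold higher in CD24 low (limma adjusted p = 0.0060), 2.32-fold in CD24 medium (0.014) and 4.04-fold in CD24 high (0.0011), as log2 differences of 1.59, 1.22 and 2.02. Esam, an adhesion molecule of endothelium and other cells, ran the other way, with -0.30 and -0.13 in CD24 low, 0.31 and 0.77 in CD24 medium, 1.03 and 0.48 in CD24 high and 1.42 in Lgr5 cells. It was 3.11-fold lower in CD24 low than in Lgr5 cells (-1.64, limma adjusted p = 0.014).

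Among 19 measured plaque proteins, which sit under the membrane beside ZO-1, 1 rose and 2 fell in CD24 low against CD24 high, and 2 fell in CD24 medium against CD24 high, where 18% and 20.8% of all genes passed. Cgnl1, which encodes paracingulin, had -1.92 and -2.43 in CD24 low, -2.15 and -2.25 in CD24 medium, 0.68 and 0.23 in CD24 high, and -0.45 in Lgr5 cells. As with Cldn2, the CD24 low and medium arrays were below all CD24 high and Lgr5 arrays. Cgnl1 was 6.18-fold lower in CD24 low (-2.63, SE 0.24, limma adjusted p = 0.00097) and 6.28-fold lower in CD24 medium (-2.65, SE 0.24, limma adjusted p = 0.0011) than in CD24 high. Against Lgr5 cells it was 3.31-fold lower in CD24 low and 3.36-fold lower in CD24 medium (limma adjusted p = 0.011 for each), and with the slide as a term the first of these had an adjusted p of 0.069. Amotl2, an angiomotin family member, was 4.57-fold higher in CD24 high than in Lgr5 cells (2.19, limma adjusted p = 0.0076). Its relative Amot was lower than in Lgr5 cells by 3.39-fold, 3.77-fold and 2.77-fold in CD24 low, medium and high (limma adjusted p = 0.037, 0.032 and 0.045). These calls were kept in 6, 10 and 4 of 16 alternatives. With Agilent's processed signals none of the Amot differences passed (limma adjusted p = 0.090, 0.093 and 0.065). The CD24 high arrays were far apart in Amot, at -0.32 and -1.55, against 0.54 in Lgr5 cells.

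Of 15 measured polarity genes, 4 rose and 1 fell in CD24 low against Lgr5, 4 rose and 1 fell in CD24 medium, and 5 rose and 2 fell in CD24 high, where 21.7%, 18.8% and 35.8% of all genes passed. Llgl2, a lethal giant larvae homologue of the basolateral side, had 1.02 and 1.19 in CD24 low, 1.08 and 1.30 in CD24 medium, 1.20 and 1.15 in CD24 high, and -0.60 in Lgr5 cells. It was higher than in Lgr5 cells by 3.25-fold, 3.46-fold and 3.43-fold in CD24 low, medium and high (limma adjusted p = 0.0036, 0.0034 and 0.0012). Prkcz, an atypical protein kinase C of the apical side, followed it by 3.01-fold, 2.71-fold and 2.77-fold (limma adjusted p = 0.0051, 0.0073 and 0.0030). No polarity gene passed in CD24 low against CD24 high, where 18% of all genes did. In CD24 medium 1 of the 15 was higher than in CD24 high and none lower, where 20.8% of all genes passed.

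All 10 adherens junction genes were measured. Against Lgr5 cells, CD24 low and CD24 high each had 2 higher and 1 lower, while CD24 medium had 1 of each. Of all genes, 11.9%, 21.2% and 10.3% passed as higher in this order, with 9.78%, 14.6% and 8.5% as lower. Cdh17 exceeded Lgr5 cells by 2.08-fold in CD24 low (limma adjusted p = 0.017) and 1.75-fold in CD24 high (limma adjusted p = 0.025). These Cdh17 calls were kept in 13 and 11 of 16 alternatives. Nectin1 and Nectin3, nectins which start cell contacts below the tight junction, differed from Lgr5 cells in opposite directions. Nectin1 had 2.41 and 2.44 in CD24 low, 2.33 and 1.98 in CD24 medium, 1.62 and 1.31 in CD24 high, and -0.03 in Lgr5 cells. It was 5.49-fold, 4.56-fold and 2.83-fold higher than in Lgr5 cells in CD24 low, medium and high (limma adjusted p = 0.0020, 0.0031 and 0.0042). Nectin3 had -2.03 and -2.16 in CD24 low, -2.11 and -2.14 in CD24 medium, -2.97 and -2.85 in CD24 high, and -0.22 in Lgr5 cells. It was 3.66-fold, 3.74-fold and 6.44-fold lower than in Lgr5 cells (limma adjusted p = 0.0023, 0.0023 and 0.00026). Between CD24 levels both ran the same way, higher in CD24 low than in CD24 high by 0.96 for Nectin1 and 0.82 for Nectin3 on the log2 scale (limma adjusted p = 0.019 and 0.015), and in CD24 medium by 0.69 and 0.78 (limma adjusted p = 0.048 and 0.016). As the mean of its probes Nectin3 differed by 0.27 and -0.00 in these comparisons, and with Agilent's processed signals Nectin1 in CD24 medium missed the threshold (0.61, limma adjusted p = 0.068). Of 5 desmosome genes, 2, Dsc2 and Dsg2, passed as lower in CD24 medium than in CD24 high, where 13.3% of all genes passed as lower. The differences were 1.71-fold (limma adjusted p = 0.015) and 1.83-fold (limma adjusted p = 0.033). Neither passed with the sample channel alone (-0.39 and -0.59, limma adjusted p = 0.058 and 0.056), and Dsg2 also missed with Agilent's processed signals (-0.65, limma adjusted p = 0.10).

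**Figure D4:**
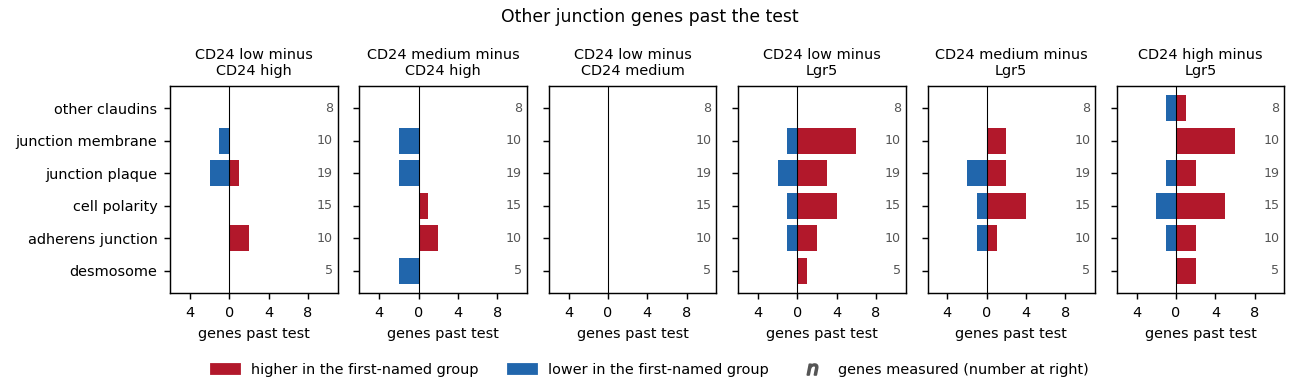
Number of genes past a limma adjusted p of 0.05 in 6 lists of other junction genes, drawn to the right of 0 where higher and to the left where lower in the first-named group, with the number measured at the right edge. Of the junction membrane genes 6 of 10 were higher than in Lgr5 cells in CD24 low and in CD24 high, beside 11.9% and 21.2% of all genes and 1 to 6 under the alternatives. No gene of these lists passed between CD24 low and medium, where 0.114% of all genes did.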

How the data were processed

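Per the file headers, each of the 7 scanner files gives the intensity of spot and local background in both dyes from Agilent's Feature Extraction software (10.5.1.1), and the deposited series matrix holds log10 ratios that equal the files' ratio column with its sign turned (largest difference 5e-06), so sample over reference. Per the labels, sorted cells carried Cy3 and whole intestine Cy5 on every array, so a dye effect cancels between groups but not in a level.

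Mean spot signals were corrected with normexp (offset 50) and log2 ratios normalised within arrays by loess (span 0.3, control spots at weight 0) in limma 3.58.1 under R 4.3.3 and data.table (version 1.17.8), without scaling between arrays. Python 3.11.15 and matplotlib 3.10.9 drew the figures. Probes well above background in the sample on at least 2 of 7 arrays were kept (24495), and the brightest probe stood for each symbol (17537 genes). Of all probes, 26918 were named through RefSeq and 14256 kept the file's name. Probe coordinates are those of the files, on mm9. Promoter windows come from RefSeq on GRCm38.p6, and 8 of the 10 genes had one.

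The limma fit took all 7 arrays and gave each group 1 mean (3 residual and 3.55 prior degrees of freedom), with Benjamini-Hochberg adjustment over all genes and a threshold of 0.05. The number of arrays limits the precision. For a gene dim in a group, the bound sets the bright group's mean against the dim group's floor, in single channels after loess and Aquantile scaling, and is open to dye bias.

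The genes and lists were chosen with earlier results of these data known, and 1 gene of the junction membrane list is not reported here. Named genes are the 10 listed, in each further list up to 3 whose difference past the threshold was largest in size, and, for each listed gene that passed, the 3 most like it by Pearson correlation over the arrays. The alternatives were no background subtraction, Agilent's processed signals, the series matrix, the sample channel alone with quantile scaling, dim probes kept or required bright on all 7 arrays, a gene's probes averaged, the slide as a term, the replicate number as a block, the compared groups alone and leaving out each array. The second slide alone was added after seeing the data.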

Additional observations from a re-analysis of the deposited data

How the results depend on the processing

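The direction and call of Cldn2 in CD24 low and CD24 medium against CD24 high and against Lgr5 were the same in every alternative run, and so were those of Cldn4 except without CD24 high 2. Leaving out 1 array at a time, 1 to 2 of the 8 measured genes passed in CD24 low against CD24 high and in CD24 medium against CD24 high (1 without CD24 high 2 in each), 0 in CD24 low against CD24 medium, 4 in CD24 low against Lgr5, 3 to 4 in CD24 medium against Lgr5 and 3 in CD24 high against Lgr5. With the sample channel alone, 4 passed in CD24 low against CD24 high, with Cldn7 and Cldn23 added as higher. Over these counts and all named genes, 1358 values under an alternative stayed on their side of the threshold, 173 lost the call, 7 gained it and 1 that had passed reversed: Nectin3 in CD24 medium against CD24 high, at 0.78 from its brightest probe and -0.00 as the mean of its probes. Among the 1358, values that did not pass could turn their sign, as given for Cldn4, Cldn7, Cldn15 and Tjp1. The causes of these changes were not tested.

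With the replicate number as a block, 2, 2, 0, 4, 4 and 3 of the 8 genes passed in the comparisons as ordered above. Over all genes 3587, 4015, 29, 3670, 3250 and 6251 passed under the same setting. Cldn7 in CD24 low against Lgr5 was lost (limma adjusted p = 0.050). Deviations of arrays with the same number correlated at 0.48 between CD24 low and medium, -0.01 between CD24 low and high and 0.30 between CD24 medium and high, and nothing in the labels says that a number marks a shared animal or day, so the numbers were not taken as pairs.

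Counts over all genes moved with the arrays left out. CD24 low against CD24 high gave 1682 to 3363 genes, CD24 medium against CD24 high 1259 to 3979, CD24 low against CD24 medium 9 to 41, CD24 low against Lgr5 2302 to 3870, CD24 medium against Lgr5 1371 to 3628 and CD24 high against Lgr5 4890 to 6356. Agilent's processed signals gave 5679 in CD24 low against CD24 high, and the slide as a term gave 1407 in CD24 low against Lgr5. On the second slide alone 1321 and 1003 genes passed in CD24 low and medium against CD24 high; Cldn2 and Cldn4 were among them in both.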
